A study of Mus musculus with 16 samples.

Results

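The 8 genes described here are Pparg, the receptor gene for PPARγ, and 7 genes whose products bring fatty acids into cells, carry them or store them: Cd36, Lpl, Fabp4, Fabp5, Dgat1, Dgat2 and Plin2. They were taken by name, as a list, from the table of 22180 genes measured on 16 single-colour expression arrays, and all 8 were measured. The arrays carry RNA from group 2 innate lymphoid cells (ILC2s), lymphocytes without antigen receptors that make type 2 cytokines, isolated from mice. The mice had received no treatment (naive) or the epithelial alarm cytokine IL-33 through the nose, and the times run from the first dose. The mediastinal lymph node (mLN) receives the lymph of the lung, and its groups were day 4 (n = 3 arrays) and week 2 (n = 3). The lung groups were naive (n = 2), day 4 (n = 3), week 2 (n = 3) and 4 months (n = 2). The lung samples are labelled C57BL/6J, and the sources used here give no strain for the mLN samples and no age, dose or sort markers for any group. There was no naive mLN group. Each array is labelled a biological replicate, and whether an array held 1 mouse or pooled mice is not given in the sources used here.

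PPARγ is a nuclear receptor that pairs with a retinoid X receptor on DNA and is activated by fatty acids and their derivatives. It is best known as the driver of fat cell formation, and alveolar macrophages of the lung also depend on it. Its known targets include the scavenger receptor and fatty acid translocase CD36, the secreted triglyceride hydrolase lipoprotein lipase (Lpl), the fatty acid chaperone FABP4 and the lipid droplet coat protein perilipin 2 (Plin2). FABP5 is another such chaperone, and DGAT1 and DGAT2 are unrelated enzymes that each carry out the last step of triglyceride synthesis. Fabp4 and Fabp5 lie near each other in a cluster of related genes. CD36, lipoprotein lipase and FABP4 are also made in quantity by macrophages, and Lyz2, the lysozyme gene of macrophages and neutrophils, is therefore given beside the 8 genes on every lung array.

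The windows of 250 bases before the annotated start are shown for the genes among the 8 that the RefSeq promoter table (mouse build GRCm38.p6) lists, because the capitals mark the letters that nuclear receptors such as PPARγ read. Windows were listed for 3 of the 8 genes, Cd36, Plin2 and Pparg, and for Pparg the first of its listed starts is printed. Each is written 5′ to 3′ on the strand of the gene. Capitals mark AGGTCA, or TGACCT where that 6-base element lies on the opposite strand.
Cd36, chr5:17835897-17836146, minus strand: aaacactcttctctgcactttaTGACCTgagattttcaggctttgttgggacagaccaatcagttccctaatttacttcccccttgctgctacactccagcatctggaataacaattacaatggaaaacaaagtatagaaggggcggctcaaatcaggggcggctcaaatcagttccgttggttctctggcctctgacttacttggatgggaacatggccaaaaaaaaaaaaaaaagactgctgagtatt
Plin2, chr4:86670060-86670309, minus strand: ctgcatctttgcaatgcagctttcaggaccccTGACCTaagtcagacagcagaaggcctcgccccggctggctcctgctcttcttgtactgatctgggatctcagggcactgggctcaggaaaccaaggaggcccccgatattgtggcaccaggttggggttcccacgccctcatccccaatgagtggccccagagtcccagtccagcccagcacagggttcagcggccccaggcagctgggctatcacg
Pparg, chr6:115360894-115361143, plus strand: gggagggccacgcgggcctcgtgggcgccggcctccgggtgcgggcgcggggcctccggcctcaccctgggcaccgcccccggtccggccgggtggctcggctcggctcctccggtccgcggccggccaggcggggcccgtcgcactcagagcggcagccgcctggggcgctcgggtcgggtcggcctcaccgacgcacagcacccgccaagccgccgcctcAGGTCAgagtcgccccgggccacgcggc

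The first capital base lies at position -228 from the annotated start used for Cd36, at -218 for Plin2 and at -28 for Pparg. These starts lie inside the listed spans of the genes. The whole Cd36 window is inside its span, chr5:17781690-17888959, so that start is an internal one. The same holds for the printed Pparg window, whose gene has the span chr6:115360879-115490404. Of the 5 windows listed for the 3 genes, 4 held the element on either strand, against 14% of all 32851 windows in the table. The full motif of PPARγ with a retinoid X receptor, AGGTCA repeated after any 1 base, on either strand, contains the single element and was in 0.0335% of all windows and in 0 of the 5. These matches are a description of the letters in short windows.

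Some lung arrays stood apart, and the results below rest on them. On the mLN arrays Lyz2 lay between 4.66 and 5.24 log2 units. It measured 9.67 and 5.73 on the naive lung arrays, 9.46, 9.52 and 6.24 at day 4, 7.06, 5.66 and 9.76 at week 2, and 9.19 and 8.32 at 4 months. Lyz2 was thus high on naive replicate 1, on day 4 replicates 1 and 2, on week 2 replicate 3 and on both 4-month arrays, and within the naive, day 4 and week 2 lung groups its arrays differed by more than the group means did. The mean of the 18 measured macrophage markers was 3.58 to 3.83 on the mLN arrays, 5.24 to 5.78 on 3 lung arrays (replicates 1 and 2 of day 4, replicate 3 of week 2) and 3.89 to 4.85 on the other 7 lung arrays. Chil3, a secreted protein of activated macrophages, was at 11.4 on both of those day 4 arrays and at 10.6 on that week 2 array, against 9.19 on day 4 replicate 3 and 5.24 to 7.23 on the 4-month arrays and naive replicate 1. T cell markers, a mean over 9 genes, lay at 4.66 to 5.07 on the 14 arrays after IL-33, against 6.35 and 6.64 on the naive arrays. The mean of the 11 measured ILC2 markers was 9.05 to 9.68 on all 16 arrays, and that of 6 fat cell markers was 3.60 and 3.68 on the 4-month arrays, the highest of all 16, and 3.11 to 3.54 on the rest. In 4-month against day 4 lung 3 of the 6 fat cell markers were called higher. The fat cell means of all 16 arrays lay below 3.73, the level used below for dim signals. Whether those calls reflect fat cell RNA, or the smaller spread of all genes on the 4-month arrays, was not tested. Epithelial markers averaged 4.69 to 5.18 on the day 4 lung arrays, against 4.26 to 4.30 on the naive arrays. Dendritic cell markers averaged 5.42 to 5.58 against 4.87 to 4.95. Gene by gene these lists were mixed. The median day 4 difference from naive lung was 0.11 over 8 epithelial markers, with 1 called higher and 0 lower. Over 7 dendritic cell markers it was -0.28, with 2 called higher and 1 lower. Scgb1a1, the airway club cell secretoglobin, was at 9.92, 7.97 and 7.58 at day 4, against 4.52 and 5.06 in naive lung. The part of these cell types in the results below was not tested. The interquartile range of all genes was 2.05 to 2.47 on the naive and 4-month arrays and 2.85 to 3.07 on the other 12. In such bulk RNA, fewer cells of a type and less RNA per cell cannot be told apart.

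Pparg had similar levels in day 4 lung, week 2 lung and day 4 mLN, and week 2 mLN lay just below them. In the mLN it was at 8.88, 8.84 and 8.96 log2 units at day 4 and at 8.41, 8.59 and 8.76 at week 2. In the lung it was at 8.38 and 7.68 on the naive arrays, at 8.74, 8.83 and 8.91 at day 4, at 8.77, 8.85 and 8.92 at week 2, and at 7.84 and 8.85 at 4 months. The day 4 and week 2 lung arrays all lay above both naive arrays, while the 4-month arrays fell on either side of the higher naive array. The 3 day 4 lung arrays, whose Lyz2 ran from 6.24 to 9.52, were close together for Pparg. In the linear model fitted with limma over all genes, Pparg was 0.79 ± 0.25 log2 units higher in day 4 lung than in naive lung (SE, n = 3 and 2, 1.73-fold, adjusted p = 0.0404). That call was lost without naive replicate 2, where the difference was 0.45 (limma adjusted p = 0.328), and without any 1 of the day 4 replicates. It was also lost with quantile normalization repeated, at 0.41 (limma adjusted p = 0.256), with array weights (0.0851), with only the groups compared (0.102), with the replicate block (0.0683), with Lyz2 as a covariate (0.052) and without the 3 lung arrays highest in macrophage markers (0.243). Week 2 lung was 0.82 ± 0.25 above naive lung (limma adjusted p = 0.0509), which missed the threshold of 0.05. The difference between week 2 and day 4 lung was 0.02 log2 units, with a 95% interval from -0.45 to 0.50, and that between day 4 mLN and day 4 lung was 0.07, from -0.41 to 0.55. Week 2 mLN was at -0.31 from day 4 mLN (limma adjusted p = 0.834) and at -0.26 from week 2 lung (adjusted p = 0.801), with no overlap of the arrays in either case. In the order of group means, from day 4 mLN through week 2 lung, day 4 lung, week 2 mLN and 4-month lung to naive lung, no neighbouring groups had separate ranges.

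**Figure D1:**
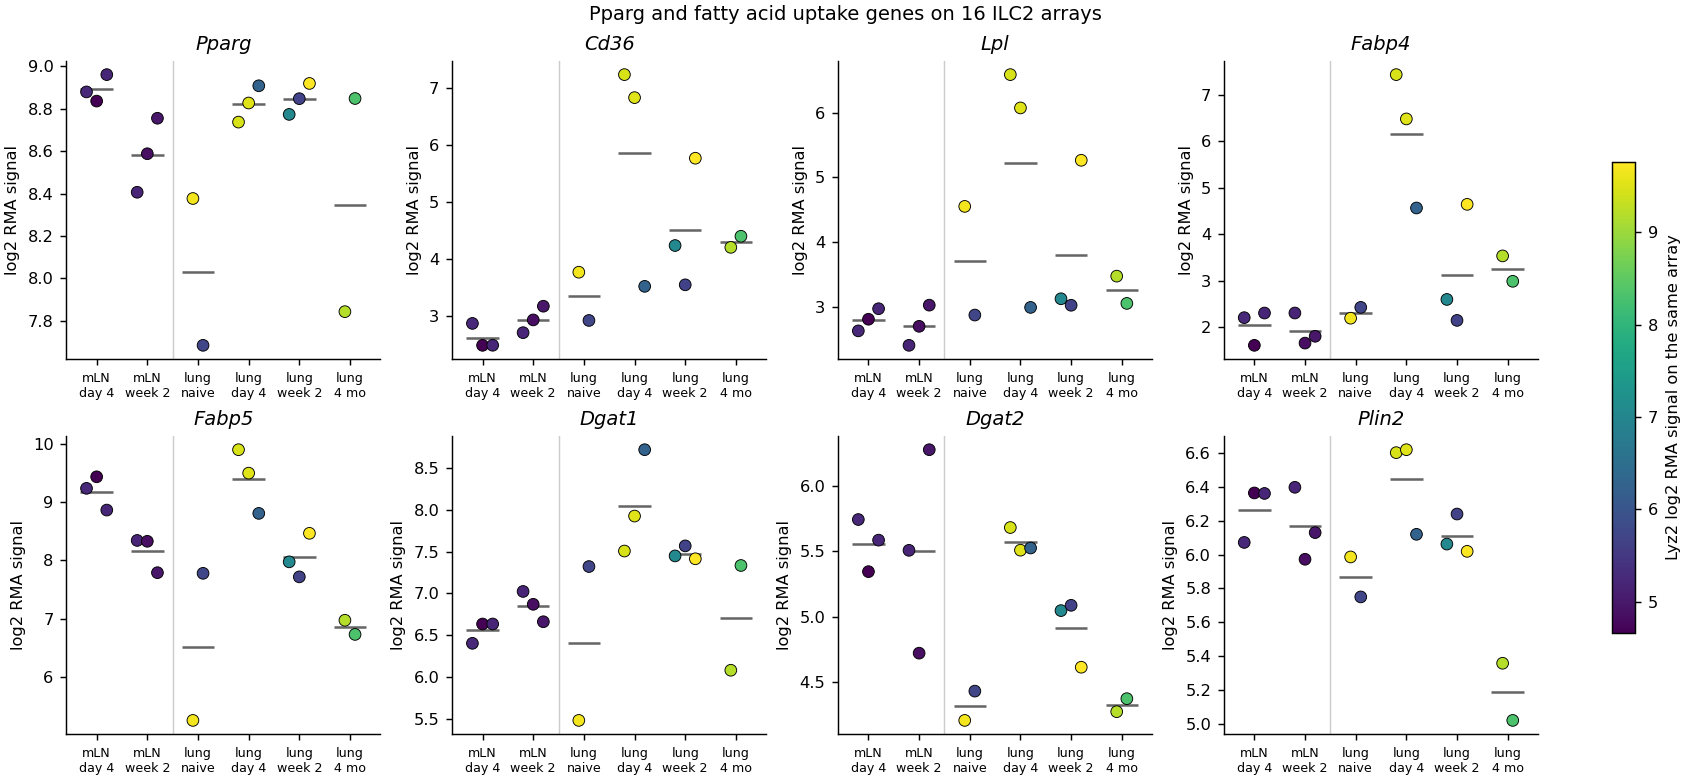
Log2 signal of Pparg, Cd36, Lpl, Fabp4, Fabp5, Dgat1, Dgat2 and Plin2 on each of the 16 arrays, by group, with points for arrays, coloured by Lyz2 on the same array, and lines for group means. Pparg stayed within 8.41 to 8.96 in the mLN, while Fabp4 ran from 2.14 to 7.43 over the lung arrays.

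Cd36, Lpl and Fabp4 had a different shape. Each was high on a few lung arrays, low on the rest and had its lowest group means in the mLN. Cd36, which takes up long-chain fatty acids at the cell surface, was at 3.77 and 2.93 log2 units on the naive lung arrays, at 7.24, 6.84 and 3.53 at day 4, at 4.24, 3.55 and 5.77 at week 2, and at 4.21 and 4.41 at 4 months. Day 4 replicates 1 and 2 and week 2 replicate 3 stood above every other array, and they are the 3 arrays with the highest macrophage markers. Day 4 replicate 3, with Lyz2 at 6.24, lay between the naive arrays. Naive replicate 1 and the 4-month arrays had Lyz2 between 8.32 and 9.67 with Cd36 at 3.77 to 4.41, so a high Lyz2 signal did not always come with a high Cd36 signal.

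Lpl, the secreted enzyme that frees fatty acids from triglyceride-rich lipoproteins, was at 4.55 and 2.87 on the naive lung arrays, at 6.59, 6.08 and 2.99 at day 4, at 3.12, 3.02 and 5.27 at week 2, and at 3.47 and 3.05 at 4 months. The highest arrays were the same 3, followed by naive replicate 1, and the groups overlapped. Over the 10 lung arrays, Pearson's r with Lyz2 was 0.70 for Cd36, 0.76 for Lpl and 0.50 for Fabp4, and it was 0.10 for Pparg. These arrays share groups and cell isolation, and the values are descriptions.

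Fabp4, a chaperone that moves fatty acids through the cytoplasm, was at 1.61 to 2.30 on the 6 mLN arrays. In the lung it was at 2.19 and 2.42 on the naive arrays, at 7.43, 6.48 and 4.56 at day 4, at 2.59, 2.14 and 4.64 at week 2, and at 3.53 and 2.98 at 4 months. All 3 day 4 arrays lay above both naive arrays, replicate 3 included, on which the macrophage marker mean was 4.31 and Lyz2 was 6.24. Chil3 was at 9.19 on that same array, against 4.04 on naive replicate 2, which had a Lyz2 signal of 5.73.

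**Figure D2:**
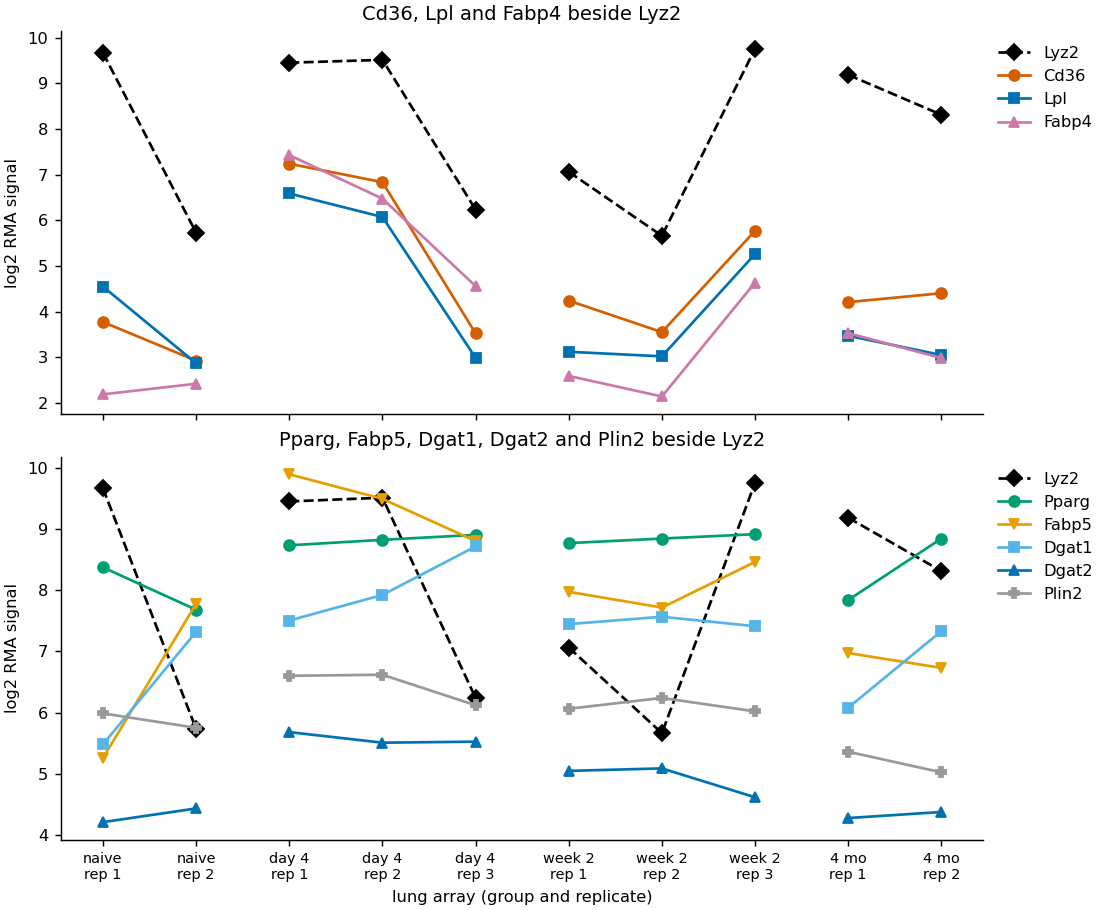
Log2 signal on each of the 10 lung arrays, by group and replicate, with Lyz2 as a dashed line in both panels, Cd36, Lpl and Fabp4 above and the other 5 genes below. Cd36, Lpl and Fabp4 peak on the day 4 and week 2 arrays with Lyz2 at 9.46 to 9.76, and the naive array with Lyz2 at 9.67 is low for Cd36 and Fabp4.

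In day 4 lung against naive lung, Fabp4 was 3.85 ± 0.67 log2 units higher (SE, limma adjusted p = 0.00115), and it was called there under every alternative run. The Fabp4 signals of the naive arrays, like those of Fabp4, Cd36 and Lpl on the mLN arrays, lay below 3.73, the 40th percentile of all values. No detection calls were used here, so a difference from such dim signals is not given as a fold. Cd36 was 2.52 ± 0.77 higher (limma adjusted p = 0.0353), although the groups overlapped, and the call was lost without either naive replicate and without day 4 replicate 1 or 2. Leaving out 1 array gave 1.83 to 3.69 for Cd36. Lpl was 1.51 ± 0.81 higher and did not pass (adjusted p = 0.214). Without day 4 replicate 3 the Lpl difference was 2.62 (adjusted p = 0.00903). With Lyz2 as a covariate, the differences were 3.54 for Fabp4 (limma adjusted p = 0.000159), 2.11 for Cd36 (adjusted p = 0.00535) and 1.05 for Lpl (adjusted p = 0.0739). Without the 3 lung arrays highest in macrophage markers, which leaves 1 day 4 lung array, the differences were 2.25 for Fabp4 (limma adjusted p = 0.00559), 0.18 for Cd36 (adjusted p = 0.849) and -0.72 for Lpl (adjusted p = 0.48). That lone array is assumed to vary like the other groups. The part of macrophage RNA in these differences was not tested beyond these values.

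Fabp5 had its highest levels at day 4 in both tissues. In the mLN it was at 9.24, 9.44 and 8.86 log2 units at day 4 and at 8.34, 8.33 and 7.79 at week 2. In the lung it was at 5.26 and 7.78 on the naive arrays, at 9.90, 9.50 and 8.81 at day 4, at 7.98, 7.72 and 8.47 at week 2, and at 6.97 and 6.73 at 4 months. The day 4 arrays of both tissues lay above all others, and the 2 naive arrays were far apart. Fabp5 was 2.88 ± 0.50 higher in day 4 lung than in naive lung (SE, limma adjusted p = 0.00106). The call held in every fit that left out 1 array, but the difference was 1.62 without naive replicate 1 and 4.15 without naive replicate 2. Without the 3 arrays highest in macrophage markers the difference was 2.29 (limma adjusted p = 0.0877). Fabp5 had 4 probe sets, and on all 4 day 4 lung was above naive lung, by 1.11 to 2.88. Near-identical Fabp5 copies elsewhere in the genome may share its probes.

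Dgat1 and Dgat2, the enzymes that join a fatty acid to diacylglycerol, were both highest in lung at day 4 and parted in the mLN. Dgat1 was at 6.40 to 6.63 in day 4 mLN and at 6.66 to 7.02 in week 2 mLN. It was at 5.48 and 7.32 on the naive lung arrays, at 7.51, 7.93 and 8.72 at day 4, at 7.45, 7.57 and 7.41 at week 2, and at 6.08 and 7.33 at 4 months. All mLN arrays lay below every day 4 and week 2 lung array. Its highest value was on day 4 replicate 3, the day 4 lung array lowest in macrophage markers. Dgat1 was 1.65 ± 0.44 higher in day 4 lung than in naive lung (SE, limma adjusted p = 0.0168), and the call was lost without day 4 replicate 3 and without naive replicate 1, where the difference was 0.73. Without naive replicate 2 it was 2.57.

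Dgat2 was at 5.74, 5.34 and 5.58 in day 4 mLN and at 5.51, 4.72 and 6.27 in week 2 mLN. It was at 4.21 and 4.43 on the naive lung arrays, at 5.68, 5.51 and 5.52 at day 4, at 5.05, 5.09 and 4.61 at week 2, and at 4.27 and 4.37 at 4 months. The day 4 lung arrays lay above every other lung array and within the range of the mLN arrays. Dgat2 was 1.25 ± 0.31 higher in day 4 lung than in naive lung (SE, limma adjusted p = 0.0114), a call lost without naive replicate 1.

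Plin2, which coats lipid droplets, had its lowest levels at 4 months. The 6 mLN arrays lay between 5.97 and 6.40. In the lung it was at 5.99 and 5.75 on the naive arrays, at 6.60, 6.62 and 6.12 at day 4, at 6.06, 6.24 and 6.02 at week 2, and at 5.36 and 5.02 at 4 months. The 4-month arrays were the lowest of all 16. The day 4 lung difference from naive lung, 0.58 ± 0.21, did not pass (limma adjusted p = 0.0649). It passed without day 4 replicate 3, at 0.74 (limma adjusted p = 0.0283).

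With the 6 groups of each gene put in order of their means, 31 of the 40 neighbouring pairs had ranges that overlapped. The matching share over all genes was not computed, so this count and the pairs named next are descriptions. The 9 separate pairs included day 4 lung over 4-month lung for Fabp4, week 2 lung over 4-month lung for Fabp5 and Dgat2, week 2 lung over week 2 mLN for Dgat1, and week 2 lung over naive lung for Plin2. The others were 4-month over naive lung for Cd36, 4-month lung over day 4 mLN for Lpl, day 4 over week 2 mLN for Fabp5, and naive over 4-month lung for Plin2.

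Counted together, 6 of the 8 genes were called higher and 0 lower in day 4 lung than in naive lung by limma, against 10.8% of all genes called higher and 5.73% called lower. At an unadjusted p under 0.05 the counts were 7 higher and 0 lower. The share of all genes at that unadjusted threshold was not computed, for this count or for those below. The shares of all genes given here are at the adjusted threshold and are no background for the unadjusted counts. The median difference of the 8 genes was 1.58 log2 units, beside -0.06 over all genes tested. With array weights, or with only the arrays compared in the fit, 3 of the 8 were called. Leaving out 1 array gave 3 to 6 called, while the calls over all genes ran from 2274 to 3308. Without the 3 arrays highest in macrophage markers, which leaves 1 day 4 lung array, Cd36 was at 0.18 and Lpl at -0.72. All comparisons with naive lung share the same 2 naive arrays.

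By week 2, 0 of the 8 genes passed against naive lung in the limma fit, beside 9.62% of all genes in either direction. At an unadjusted p under 0.05 there were 3, Pparg, Fabp5 and Dgat1, all higher. Fabp5 was 1.54 higher (limma adjusted p = 0.0614) and Dgat1 was 1.08 higher (adjusted p = 0.131). Without naive replicate 2 both passed, with differences of 2.80 for Fabp5 and 2.00 for Dgat1, and Pparg passed without naive replicate 1. Between week 2 and day 4 lung, Fabp4 was called, 3.03 ± 0.60 lower at week 2 (SE, limma adjusted p = 0.0127), beside 1.39% of all genes called lower. The groups overlapped, since week 2 replicate 3 at 4.64 lay above day 4 replicate 3 at 4.56, and the call was lost without day 4 replicate 1 or 2 and without week 2 replicate 1 or 2. Fabp5 and Dgat2 did not pass, at -1.35 (adjusted p = 0.181) and -0.66 (adjusted p = 0.345), although their week 2 lung arrays all lay below the day 4 ones.

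At 4 months no difference from naive lung passed the threshold. The values were 0.96 for Cd36 and 0.95 for Fabp4, and both 4-month arrays lay above both naive arrays for each. Against naive lung, 0 of the 8 passed in the limma fit, beside 1.97% of all genes, and 1 did at an unadjusted p under 0.05, Plin2 at -0.68 ± 0.23 (adjusted p = 0.126). Against day 4 lung, 5 of the 8 were called lower and 0 higher, beside 16.6% of all genes called lower and 9.02% called higher. Fabp4 fell by 2.90 log2 units (limma adjusted p = 0.00553), Fabp5 by 2.55 (0.00184), Dgat1 by 1.34 (0.0329), Dgat2 by 1.25 (0.00833) and Plin2 by 1.26 (0.000532). These 5 had day 4 and 4-month ranges that did not overlap, and the calls for Fabp4, Fabp5 and Plin2 held without any 1 array of either group. The share of all genes with such separate ranges was not computed. The call for Dgat1 was lost without day 4 replicate 2 or 3 or 4-month replicate 1, and that for Dgat2 without 4-month replicate 1. The Dgat1 difference without 4-month replicate 1 was -0.72. Leaving out 1 array gave 3 to 6 of the 8 called, while the calls over all genes ran from 2216 to 6814. Without the 3 arrays highest in macrophage markers 1 day 4 array is left. The differences were then -1.30 for Fabp4, -2.01 for Dgat1, 0.27 for Lpl and 0.78 for Cd36. Without day 4 replicate 3, Cd36 and Lpl were also called lower at week 2 and at 4 months than at day 4, and without 4-month replicate 2 Pparg was called lower at 4 months than at day 4. Against week 2 lung, Plin2 was called, 0.92 ± 0.21 lower at 4 months (SE, limma adjusted p = 0.0091), beside 11.5% of all genes called lower. The smaller spread of all genes on the naive and 4-month arrays moves with these comparisons, and its part in them was not tested.

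**Figure D3:**
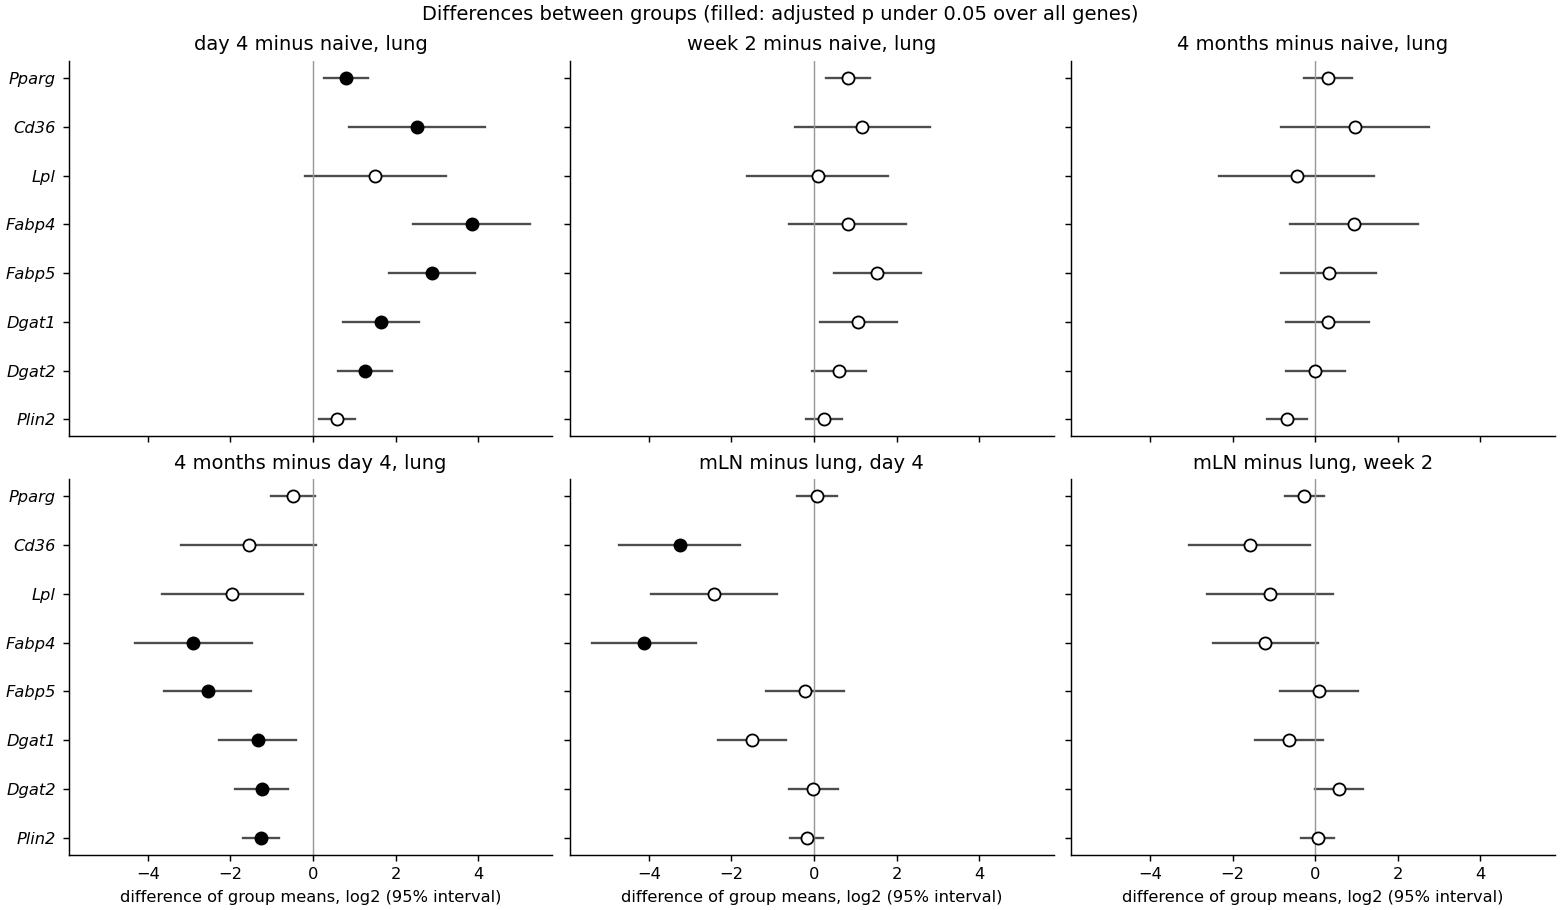
Log2 differences of group means with 95% intervals for the 8 genes in 4 lung comparisons and 2 between mLN and lung, with filled points for limma adjusted p under 0.05. In day 4 lung against naive lung 6 genes were called higher, led by Fabp4 at 3.85, and in 4 months against day 4 lung 5 were called lower.

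The mLN arrays allow the same time points to be compared in another tissue. In day 4 mLN against day 4 lung, Fabp4 was 4.12 ± 0.60 log2 units lower (SE, n = 3 each, limma adjusted p = 0.000745) and Cd36 was 3.25 ± 0.69 lower (adjusted p = 0.0159). These were 2 of the 8 genes, beside 1.35% of all genes called lower. Cd36 was at 2.49 to 2.88 and Lpl at 2.63 to 2.97 on the day 4 mLN arrays, below all day 4 lung arrays. Lpl was 2.42 lower and did not pass (adjusted p = 0.112), and Lyz2 was 3.37 lower (adjusted p = 0.106). With Lyz2 as a covariate the Cd36 difference was -1.30 (limma adjusted p = 0.386), while Fabp4 stayed called at -2.62 (adjusted p = 0.0212). Lyz2 did not overlap between the tissues, with at most 5.24 in the mLN and at least 5.66 in the lung. Between tissues the covariate fit therefore extrapolates. Without the 3 arrays highest in macrophage markers, Fabp4 was 2.52 lower (adjusted p = 0.00361) and Cd36 0.91 lower (adjusted p = 0.468). The Cd36 call was also lost without day 4 lung replicate 1 or 2 and without day 4 mLN replicate 2 or 3.

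Dgat1 was 1.49 lower in day 4 mLN than in day 4 lung and just missed the threshold (limma adjusted p = 0.0565). It passed with Lyz2 as a covariate, at -2.42 (limma adjusted p = 0.00317), a fit that extrapolates because Lyz2 did not overlap between the tissues. Dgat1 also passed with array weights, with dim genes left out, with only the groups compared and with the replicate block. Leaving out day 4 lung replicate 1 gave -1.77 (limma adjusted p = 0.0499), and without any other 1 array it did not pass. Fabp5, Dgat2 and Plin2 differed by -0.22, -0.01 and -0.18 log2 units, with 95% intervals from -1.16 to 0.72 for Fabp5, from -0.60 to 0.57 for Dgat2 and from -0.57 to 0.21 for Plin2.

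At week 2, 0 of the 8 genes passed between mLN and lung in the limma fit, beside 0.78% of all genes, and 2 did at an unadjusted p under 0.05, Cd36 at -1.58 and Dgat2 at 0.59. Within the mLN, 0 of the 8 differed between week 2 and day 4 by limma, beside 1.71% of all genes, and 1 did at an unadjusted p under 0.05. That gene was Fabp5, 1.03 lower at week 2 (limma adjusted p = 0.471), with no overlap between the groups. Whether the change from day 4 to week 2 differed between the tissues was tested as an interaction. It was called for 0 of the 8 genes, beside 0.18% of all genes. At an unadjusted p under 0.05 there was 1, Fabp4, whose change in the mLN minus that in the lung was 2.91 ± 0.85 log2 units (limma adjusted p = 0.291), and it passed without day 4 lung replicate 3 (3.71, adjusted p = 0.0404).

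**Figure D4:**
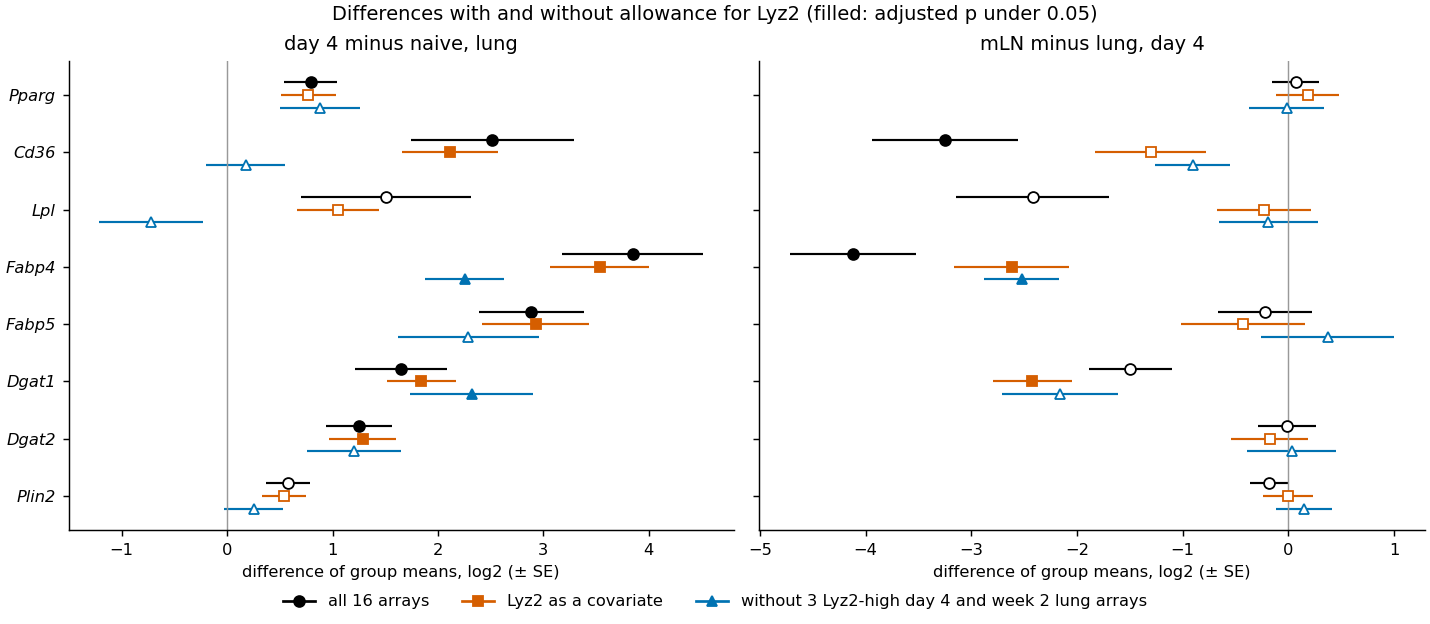
Log2 differences of the 8 genes in day 4 lung against naive lung and day 4 mLN against day 4 lung, as fitted, with Lyz2 as a covariate, and without the 3 lung arrays highest in macrophage markers, with bars for the SE and filled points for adjusted p under 0.05. Fabp4 stays called in all 3 fits of both comparisons, and Cd36 in day 4 lung against naive lung moves to 0.18 without the 3 arrays.

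A wider list of 55 genes of fatty acid uptake, activation, storage and breakdown, which holds none of the 8, had 50 measured members. In day 4 lung against naive lung, 7 of the 50 were called higher and 0 lower, with a median difference of 0.15 beside -0.06 over all genes, and 12 higher and 5 lower at an unadjusted p under 0.05. The share called higher, 14%, lies near the 10.8% of all genes. The largest changes were Dbi, the acyl-CoA binding protein, at 1.94, Bscl2, the lipid droplet protein seipin, at 1.29, Lpin2, a phosphatidate phosphatase, at 1.22, and Mgll, monoacylglycerol lipase, at 1.22. The count of called genes was 11 without naive replicate 1 and 4 without naive replicate 2. With array weights 4 of the 50 were called, and 1 was without the 3 arrays highest in macrophage markers. In week 2 lung, 4 of the 50 were called higher than naive lung and 0 lower (3 lower at an unadjusted p under 0.05), Dbi at 1.19, Bscl2 at 0.79, the fatty acid transporter Slc27a6 at 0.67 and Fitm1 at 0.63. These 4 are 8% of the list, beside 9.62% of all genes called in either direction, and the count was 1 without naive replicate 2 and 0 without any 1 of the week 2 replicates. At 4 months 2, or 4%, were called lower than naive lung and 0 higher, beside 1.97% of all genes called in either direction. They were Abhd5, the activator of the triglyceride lipase, at -1.23 and the acyl-CoA synthetase Acsl5 at -1.04. At an unadjusted p under 0.05, 3 were higher and 3 lower.

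In 4-month against day 4 lung, 11 of the 50, or 22%, were called lower, beside 16.6% of all genes. The 2 called higher are 4% of the list, beside 9.02% of all genes. Those lower included Abhd5 at -1.57, Dbi at -1.47, the lysosomal lipase Lipa at -1.26 and Lpin2 at -0.95, and those higher were Plin1 at 0.69 and Cidea at 0.67, genes best known from fat cells and named here after their values were seen. The count of called genes was 4 without 4-month replicate 1 and 1 without the 3 arrays highest in macrophage markers. Between day 4 mLN and day 4 lung, 2, or 4%, were called lower, Mgll at -1.10 and Slc27a6 at -0.82, beside 1.35% of all genes. In the mLN, Hilpda, an inhibitor of triglyceride breakdown, was called higher at week 2 than at day 4, by 1.55. It was 1 of the 50, or 2%, beside 1.71% of all genes called in either direction. Both counts rest on few arrays: the count between tissues was 0 without day 4 lung replicate 1 or day 4 mLN replicate 2, and that within the mLN was 0 without day 4 replicate 1 or 2 or any 1 of the week 2 replicates.

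Genes for the partners and cofactors of PPARγ were followed in a list of 24, of which 21 were measured. In day 4 lung against naive lung 1 was called higher, the corepressor Nrip1 at 0.61, and 1 lower, the retinoid X receptor gene Rxrg at -0.96. Each is 4.76% of the list, beside 10.8% of all genes called higher and 5.73% called lower. Rxrg was also lower than naive lung at week 2, at -1.09, and at 4 months, at -1.04, and these comparisons share the naive arrays. The acetyltransferase gene Crebbp and the coactivator gene Ncoa1 were called higher at week 2 than in naive lung, at 0.79 and 0.76. The list thus had 2 higher and 1 lower at week 2, beside 9.62% of all genes called in either direction. At 4 months against naive lung it had 0 higher and 1 lower, beside 1.97%. In 4-month against week 2 lung 5 of the 21 were called lower and 0 higher, and 7 were lower and 0 higher at an unadjusted p under 0.05, with Nrip1 at -0.90, Ncoa3 at -0.87, Ep300 at -0.73 and Crebbp at -0.68. Of all genes, 11.5% were called lower there, and the count in the list was 2 without any 1 of the week 2 replicates and 0 without 4-month replicate 1. The calls over all genes in that comparison ran from 793 to 5588 when 1 array was left out. In the mLN, Cebpb, a transcription factor that acts ahead of PPARγ in fat cell formation, was called 0.97 higher at week 2 than at day 4. That call was lost without any 1 of the 6 mLN arrays. Cebpb was 1 of the 21, or 4.76%, beside 1.71% of all genes called in either direction.

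The genes whose pattern over the 16 arrays was most like that of each gene differed between the uptake genes and the rest. For Cd36 they were Myof, with Pearson's r of 0.962, Mmp12, Fn1, Plet1 and Tgfbi. For Lpl they were Mmp12, with r of 0.961, Tgfbi, Clec7a, Fn1 and Ms4a8a, and for Fabp4 they were Olr1, with r of 0.973, Atp6v0d2, Plet1, Tgfbi and Rnase2a. Tgfbi is thus on all 3 lists. Pparg was closest to Txndc5, with r of 0.957, Ints13, Ddx50, Tle3 and Pds5b, and Fabp5 to Eif3i, with r of 0.958, Lxn, Dhrs1, Micu2 and Tctex1d4. Dgat1 was closest to Gch1, with r of 0.902, Dgat2 to Elavl1, with r of 0.914, and Plin2 to Dcun1d5, with r of 0.947. The arrays of a group share their condition, so these values are a description.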

How the data were processed

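Total RNA of isolated ILC2s was extracted with Trizol and labelled with a Nugen Encore biotin kit, per the labels' protocols. The authors deposited a log2 signal for each probe set on each array, which the submitters' processing notes credit to RMA in Affymetrix Expression Console. RMA corrects background, brings probe signals to the same distribution across arrays and summarizes probes. The values therefore carry no information on the amount of RNA in a cell. The deposited gene values still differed in spread. Their interquartile range was 2.05 to 2.47 on the naive and 4-month arrays and 2.85 to 3.07 on the other 12. The genome build and the versions of these tools were not given in the sources used here. Levels of different genes were not set against each other, since probe sets differ in brightness.

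Of 41345 probe sets, 23521 carried 1 gene symbol. The probe set with the highest mean represented each of 22180 genes. Group means were fitted to all 16 arrays with limma 3.58.1 in R 4.3.3 (no trend, not robust, 10 residual degrees of freedom), with two-sided p-values adjusted over all genes by Benjamini-Hochberg and a threshold of 0.05. The number of arrays, 2 or 3 per group, limits the precision. The fit was tested on simulated data for day 4 lung against naive lung. It called 48% of changes of 1 log2 unit and 95% of changes of 2, and 2.72% of its calls were unchanged genes. The simulation gave all arrays the same spread. The estimated array weights were 0.439 for naive and 0.442 for 4-month arrays, against 1.81 for week 2 lung replicate 1. The simulation therefore cannot show how the fit performs with such unequal arrays.

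The 8 genes and the gene lists were chosen with earlier results of these data known. Named beside the 8 genes and Lyz2 are up to 4 called genes of each list with the largest change per comparison, and the 5 genes with the highest Pearson r to each of the 8 (predicted genes left out). Motifs were searched as exact letters. Alternatives were array medians centred, quantile normalization repeated, dim genes left out, array weights, trend and robust options, fits of the compared groups alone, averaged probe sets, a replicate block, Lyz2 as a covariate, the 3 lung arrays highest in macrophage markers left out, and each array left out in turn.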

Additional observations from a re-analysis of the deposited data

How the results depend on the processing

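Of 924 recomputed values of the 8 genes, 801 kept their direction and side of the threshold, 54 lost a call, 30 gained one and 39 changed sign. These values do not hold all 8 genes in every comparison. In 4 months against week 2 lung they cover only Plin2 and Fabp5. In week 2 against day 4 mLN they cover only Fabp5, and in the interaction only Fabp4. None of the 39 was called in the fit as reported. The number of the 8 genes called in day 4 lung against naive lung, 6 as reported, was 3 with array weights, 3 with only the groups compared, 2 without the 3 lung arrays highest in macrophage markers and 3 to 6 without 1 array. In week 2 against naive lung it was 1 with medians centred, 1 with dim genes left out, 1 with trend and robust options and 0 to 2 without 1 array. In 4 months against naive lung it was 0 to 1 without 1 array. In week 2 against day 4 lung it was 2 with array weights, 0 with only the groups compared and 0 to 3 without 1 array. In 4 months against week 2 lung it was 0 with array weights, 0 with quantile normalization, 2 with only the groups compared, 2 with the mean of probe sets, 2 with Lyz2 as a covariate and 1 to 2 without 1 array. In 4 months against day 4 lung it was 3 with array weights, 0 without the 3 arrays and 3 to 6 without 1 array. In week 2 against day 4 mLN it was 1 with only the groups compared. In day 4 mLN against day 4 lung it was 4 with array weights, 1 with trend and robust options, 1 without the 3 arrays and 1 to 3 without 1 array. For the interaction it was 0 to 1 without 1 array. The calls over all genes moved too. Without 1 array they ran from 2274 to 3308 in day 4 against naive lung. In week 2 against naive lung they ran from 1084 to 2274. They ran from 793 to 5588 in 4 months against week 2 lung and from 2216 to 6814 against day 4 lung. Counts of the 8 genes or of a list under an alternative fit carry no share of all genes in that fit. The cause of these moves was not tested.

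The sign changes follow, in log2 units. Without the 3 arrays, day 4 lung against naive lung gave -0.72 for Lpl, and week 2 against naive lung gave -0.64 for Lpl. Week 2 against day 4 lung gave -0.10 for Pparg, 0.031 for Plin2, 0.084 for Lpl and 0.37 for Cd36, and 4 months against day 4 lung gave 0.27 for Lpl and 0.78 for Cd36. Day 4 mLN against day 4 lung gave -0.016 for Pparg, 0.032 for Dgat2, 0.15 for Plin2 and 0.37 for Fabp5. With Lyz2 as a covariate, week 2 mLN against lung gave -0.052 for Fabp5 and 0.53 for Lpl. With medians centred, Dgat2 was at -0.048 in 4 months against naive lung and at 0.0024 in day 4 mLN against lung. With the mean of probe sets, Fabp5 was at -0.44 in 4 months against naive lung. With quantile normalization, Plin2 was at -0.042 in week 2 against naive lung and at -0.0023 in week 2 mLN against lung, Dgat2 at -0.072 in 4 months against naive lung and Pparg at 0.058 in 4 months against day 4 lung. Without 1 array, 4 months against naive lung ran from -0.61 to 1.23 for Dgat1, -0.11 to 0.12 for Dgat2, -0.93 to 1.60 for Fabp5, -1.29 to 0.39 for Lpl and -0.19 to 0.82 for Pparg. Pparg ran from -0.98 to 0.024 in 4 months and from -0.021 to 0.065 in week 2 against day 4 lung, and Lpl from -0.75 to 0.93 in week 2 against naive lung. Day 4 mLN against lung ran from -0.11 to 0.092 for Dgat2 and -0.52 to 0.026 for Fabp5, and week 2 mLN against lung from -0.067 to 0.31 for Fabp5 and -0.056 to 0.16 for Plin2.

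Groups share replicate numbers, so a fit with the replicate number as a block was run. It called 5 of the 8 genes in day 4 lung against naive lung and 3 in day 4 mLN against day 4 lung. The deviations of same-numbered arrays from their group means correlated at -0.104 to 0.184 over 36 pairs (median 0.028). Those of differently numbered arrays correlated at -0.173 to 0.137 over 70 pairs (median -0.016). These pairs pool all groups, so they cannot decide whether lung and mLN arrays of the same time were paired.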
